A study of Mus musculus with 13 samples.

Results

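Fragments of the 3′ part of 28S ribosomal RNA were described across 9 mouse small RNA libraries. A member is a unique sequence that the deposited table classes as rRNA, places on the 45S pre-rRNA record, and starts at or after base 2366 of the 28S RNA, which was taken to be 4730 bases long. There were 2373 such sequences, of 7013 on the 45S record and 18385 in the table. Members were 16 to 82 bases long, with a median of 21, and none was on the reverse strand. Positions below are those of the 45S record as the table gives them. The last 2 sequences outside the threshold started at 10473 and 10474 and reached 12.1 and 19.3 RPM in HOXB8 biotin (RPM, the reads of a sequence scaled to 1000000 reads of its library). The first 2 inside it started at 10491 and 10492 and reached 17.6 and 24.2 RPM in the differentiated HOXB8 input.

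The study asked which small RNAs carry glycans in neutrophils and in HOXB8 cells, mouse myeloid progenitors held immature by an estradiol-dependent HOXB8 protein. HOXB8 cells grew with 1 µM estradiol and 100 ng/ml SCF (stem cell factor). Differentiated HOXB8 cells were washed and grown without estradiol, with SCF listed at the same 100 ng/ml. For 36 h the medium held 100 µM Ac4ManNAz, from which cells make sialic acid that bears an azide, together with Gal at 10 µM and GalNAc at 100 µM. The protocol text is shared by all small RNA libraries and does not say whether the neutrophils, freshly isolated from the bone marrow of wild-type mice, were labelled too. Input libraries held gel-purified RNA under 300 nt, biotin libraries RNA linked to biotin through the azide and held on streptavidin, and WGA libraries RNA held on beads of wheat germ agglutinin, a lectin that binds sialic acid and N-acetylglucosamine. PNGase F, which removes N-glycans from proteins, was applied to 1 further biotin library of differentiated HOXB8 cells. Each group was 1 library, so no difference below has a replicate check. Intervals are exact 95% intervals of read counts alone, and reads carried no molecular identifiers that would make each an independent molecule. The libraries held 3110323 to 9922659 reads, of which the table holds 39.3% in the HOXB8 input, 70.2% in the differentiated input and 88.3% to 96.7% in the other 7. A small RNA table holds no mRNA markers by which the cell types could be checked.

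28S rRNA is the large RNA of the 60S ribosomal subunit. It is cut from the 45S precursor, in which it is the last mature RNA before the 3′ external transcribed spacer, and its 3′ part holds the peptidyl transferase centre and the sarcin-ricin loop. Mammalian 28S rRNA also carries long GC-rich expansion segments that protrude from the ribosome's surface.

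Members with high levels after capture are shown first, with runs of 4 or more G in capitals.

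11772 to 11799: tcctcgcgtcGGGGtcGGGGcacgccgg

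11029 to 11044: gttccggagcgggagg

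11853 to 11869: ggtgaggcGGGGGGGcg

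10687 to 10703: aacagcctctggcatgt

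Members with high levels in an input library are set beside them, with the same marking.

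10544 to 10566: ccccgagagaGGGGcccgtgcct

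10677 to 10714: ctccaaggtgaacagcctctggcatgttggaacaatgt

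10695 to 10714: ctggcatgttggaacaatgt

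The last stretch of the covered 28S sequence holds members that were abundant in different libraries. It runs from 12616 to 12835 and is the majority letter of the overlapping members at each position. Capitals mark 3 of these members, at 12630 to 12651, 12702 to 12717 and 12817 to 12835.

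12616 to 12835: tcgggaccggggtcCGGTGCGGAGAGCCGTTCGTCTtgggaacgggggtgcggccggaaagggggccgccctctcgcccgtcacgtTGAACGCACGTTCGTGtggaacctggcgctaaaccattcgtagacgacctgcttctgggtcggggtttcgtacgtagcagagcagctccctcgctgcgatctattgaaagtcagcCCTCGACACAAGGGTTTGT

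Summed over members, 28S 3′ fragments were most abundant in captured RNA of HOXB8 cells and least abundant in captured RNA of neutrophils. The sums were 19102 RPM in the HOXB8 input, 66626 in biotin and 90651 in WGA. In differentiated HOXB8 cells they were 24513 in the input, 40552 in biotin, 27689 in WGA and 37932 in biotin with PNGase F. In neutrophils they were 16097 in the input and 7776 in WGA. WGA was thus 4.75-fold above input in HOXB8 cells (4.71 to 4.78), 1.13-fold above it in differentiated cells (1.12 to 1.14) and 2.07-fold below it in neutrophils. Biotin was 3.49-fold above input in HOXB8 cells and 1.65-fold above it in differentiated cells, and the PNGase F library stood at 0.935 of the biotin library. Over the 3 kinds of cell, the mean log2 ratio of WGA to input was 0.46 ± 1.67 (SD, n = 3), with p = 0.75 in an exact two-sided sign-flip permutation test whose smallest possible p is 0.25.

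These directions depend on what the members are counted against. Another 851 sequences lie letter for letter in the members' majority sequence, yet the table lists them under other records, 697 as ncRNA and 144 as miRNA. They summed to 16924 RPM in the HOXB8 input and 27777 in HOXB8 WGA, to 24053 and 15126 in the differentiated input and WGA, and to 17533 and 9843 in the neutrophil input and WGA. With them added, the log2 ratio of WGA to input was 1.72 in HOXB8 cells, -0.18 in differentiated cells and -0.93 in neutrophils, against 2.25, 0.18 and -1.05 for the members alone. The sign for differentiated cells therefore turned. As a share of 45S reads, members made up 15.4% in the HOXB8 input and 21.4% in HOXB8 WGA. The same share was 9.11%, 7.57% and 5.55% in the differentiated input, biotin and WGA, so biotin too lay below input on this scale, and 2.88% and 2.45% in the neutrophil input and WGA. Other 45S parts were uneven between libraries. Fragments of 5.8S had 100536, 4559 and 3192 RPM in the differentiated input, biotin and WGA, and 457238 and 287 in the neutrophil input and WGA. Those of the 5′ external transcribed spacer had 14040 and 267802 in the neutrophil input and WGA. How far these parts set the shares was not tested.

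The 28S 5′ fragments, the most similar set on the record, had WGA to input ratios of 3.20, 2.83 and 0.349 in HOXB8, differentiated and neutrophil cells. On the log2 scale, the 3′ members exceeded them by 0.57 in HOXB8 cells and 0.47 in neutrophils and were 1.33 lower in differentiated cells (p = 1.0, exact two-sided sign-flip permutation test, n = 3).

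**Figure D1:**
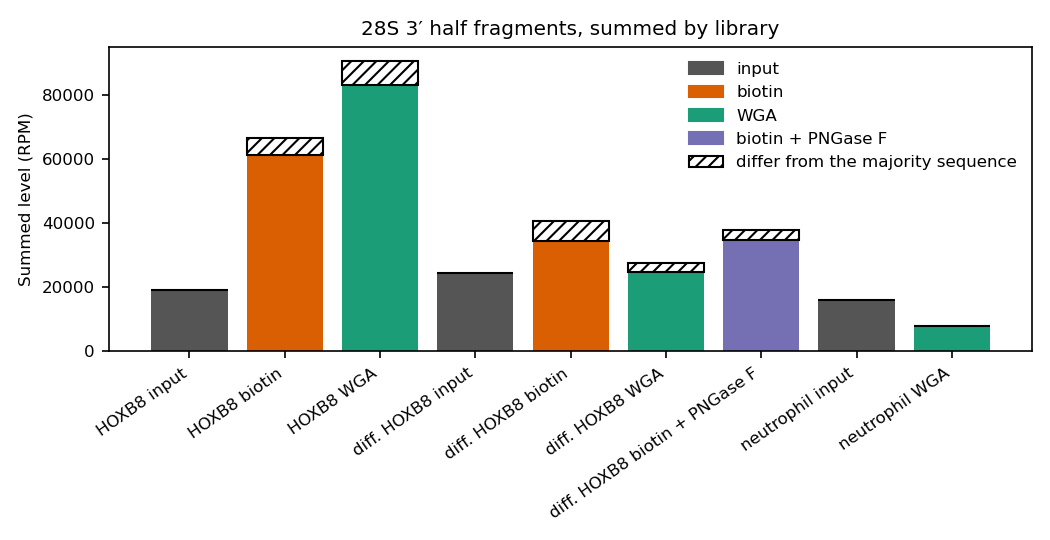
Summed level of the 2373 fragments in each of the 9 libraries, in RPM. Bars are single libraries, coloured by how the RNA was taken, and the hatched part is reads of fragments that differ from the majority sequence. The HOXB8 WGA bar is the highest, at 90651 RPM, and the neutrophil WGA bar the lowest, at 7776.

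Of the 2373 members, 130 were read in all 9 libraries and 235 reached 100 RPM in at least 1. Detection ran from 2050 members in HOXB8 biotin down to 348 in neutrophil WGA. In neutrophils a few members carried most reads. The 10 highest held 61.5% of member reads in the neutrophil input and 71.2% in neutrophil WGA, against 20.6% to 26.8% in the 7 HOXB8 libraries. It took 5 members to reach 50% of member reads in the neutrophil input and 4 in neutrophil WGA, against 38 to 79 in the HOXB8 libraries.

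Counted one by one at 2-fold or more, on log2(RPM + 1) and a mean of at least 10 RPM in the pair, 686 of 861 members were higher in HOXB8 WGA than in input, where 61.2% of all tested sequences were, and 96 were lower, where 29.1% were. In differentiated cells 245 of 455 were higher in WGA (47.4% of all sequences) and 163 lower (43.2%). In neutrophils 11 of 96 were higher (34.6%) and 60 lower (51.8%). Biotin gave 519 higher (49.2%) and 107 lower (41.2%) of 706 in HOXB8 cells, and 311 higher (43.1%) and 151 lower (45.7%) of 524 in differentiated cells. The share of members above input was thus larger than the share of all sequences in the 4 captures of HOXB8 cells, and smaller in neutrophil WGA. Between the inputs, 75 of 327 members were higher (32.9%) and 32 lower (22.5%) in differentiated than in HOXB8 cells, and 27 of 244 were higher (25.4%) and 169 lower (48.9%) in neutrophils than in differentiated cells. A pair is 2 libraries, so these counts compare libraries and not conditions.

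Captured HOXB8 RNA was rich in GC-rich members. Members with 80% GC or more (1039 sequences) held 13.6% of member reads in the HOXB8 input, 49.2% in biotin and 46.2% in WGA. In differentiated cells they held 7.85% in the input, 47.2% in biotin, 39.7% in WGA and 44.2% with PNGase F. In neutrophils they held 3.18% in the input and 0.526% in WGA. The 5 HOXB8 captures were thus far above both HOXB8 inputs, while the neutrophil WGA library was below its input. The 352 members under 60% GC held 35.7% and 42.2% in the HOXB8 and differentiated inputs, 5.31% to 16.1% in the 5 captures, and 71.7% and 53.5% in the neutrophil input and WGA. Their share was thus lower after capture in every kind of cell, and in neutrophils it was the members of 60% to under 80% GC whose share was higher. In neutrophils these shares depend on a single start. Members starting at 12817 held 41.3% of member RPM in the neutrophil input and 0.00778% in neutrophil WGA. The leading member there, 12817 to 12835, has 52.6% GC. The neutrophil values therefore do not show a shift among low-GC members at large.

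**Figure D2:**
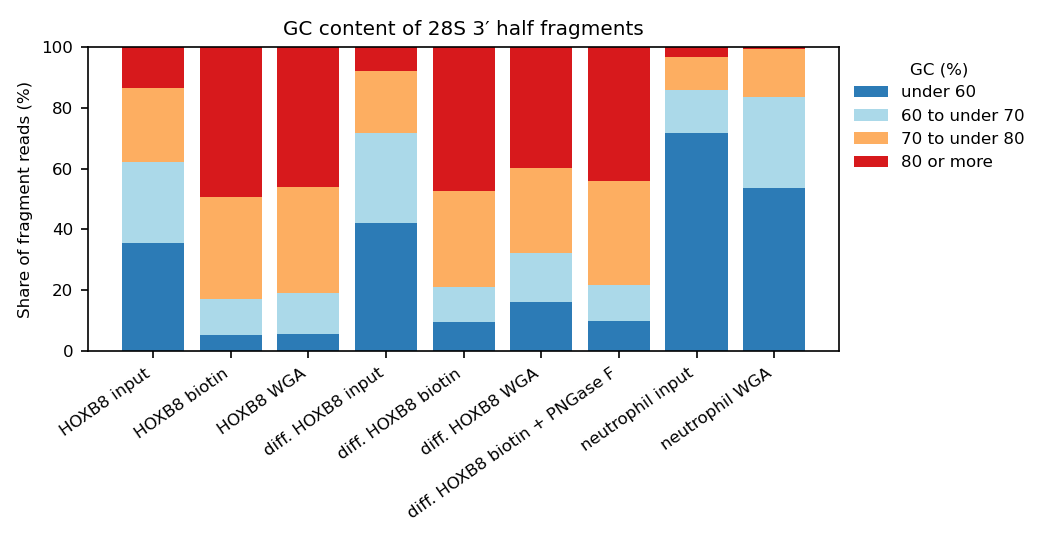
Share of fragment reads (%) by GC content of the fragment, for each library; each bar is 1 library and sums to the whole. The class of 80% GC or more takes 39.7% to 49.2% in the 5 HOXB8 captures and 0.526% in neutrophil WGA.

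Runs of 5 G (GGGGG, searched on the read strand) occurred in 500 members, 21.1% of them, against 16.6% of 28S 5′ fragments and 8.14% of all sequences in the table. These members held 7.38% of member reads in the HOXB8 input, 26.6% in biotin and 22.3% in WGA. They held 3.89% in the differentiated input, 14.0% in WGA and 17.4% in biotin with PNGase F, and 1.38% and 1.46% in the neutrophil input and WGA.

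Along the RNA, members covered 2235 of the 2365 positions from the threshold to the taken end of 28S, with 7 gaps. In windows of 100 bases, 8 of 24 had 75% GC or more in the covered sequence. Those 8 held 29.5% of member RPM in the HOXB8 input, 59.4% in biotin and 58.8% in WGA. They held 18.8% in the differentiated input, 43.5% in biotin and 42.2% in WGA, and 18.2% and 32.1% in the neutrophil input and WGA. The window from 11188 to 11287, 85% GC, illustrates the contrast between HOXB8 cells and neutrophils. It had 558 RPM in the HOXB8 input, 6467 in biotin and 10051 in WGA, but 124 in the neutrophil input and 2.82 in neutrophil WGA. Over the 24 windows, which share libraries and depth, Spearman's rho between GC and the log2 ratio of WGA to input was 0.83 in HOXB8 cells, 0.72 in differentiated cells and -0.37 in neutrophils, and -0.02 for PNGase F over biotin. Over single members of at least 10 RPM in the pair, rho was 0.48 (861 members), 0.52 (455) and 0.29 (96) in the same kinds of cell, so the sign in neutrophils differed between windows and members.

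**Figure D3:**
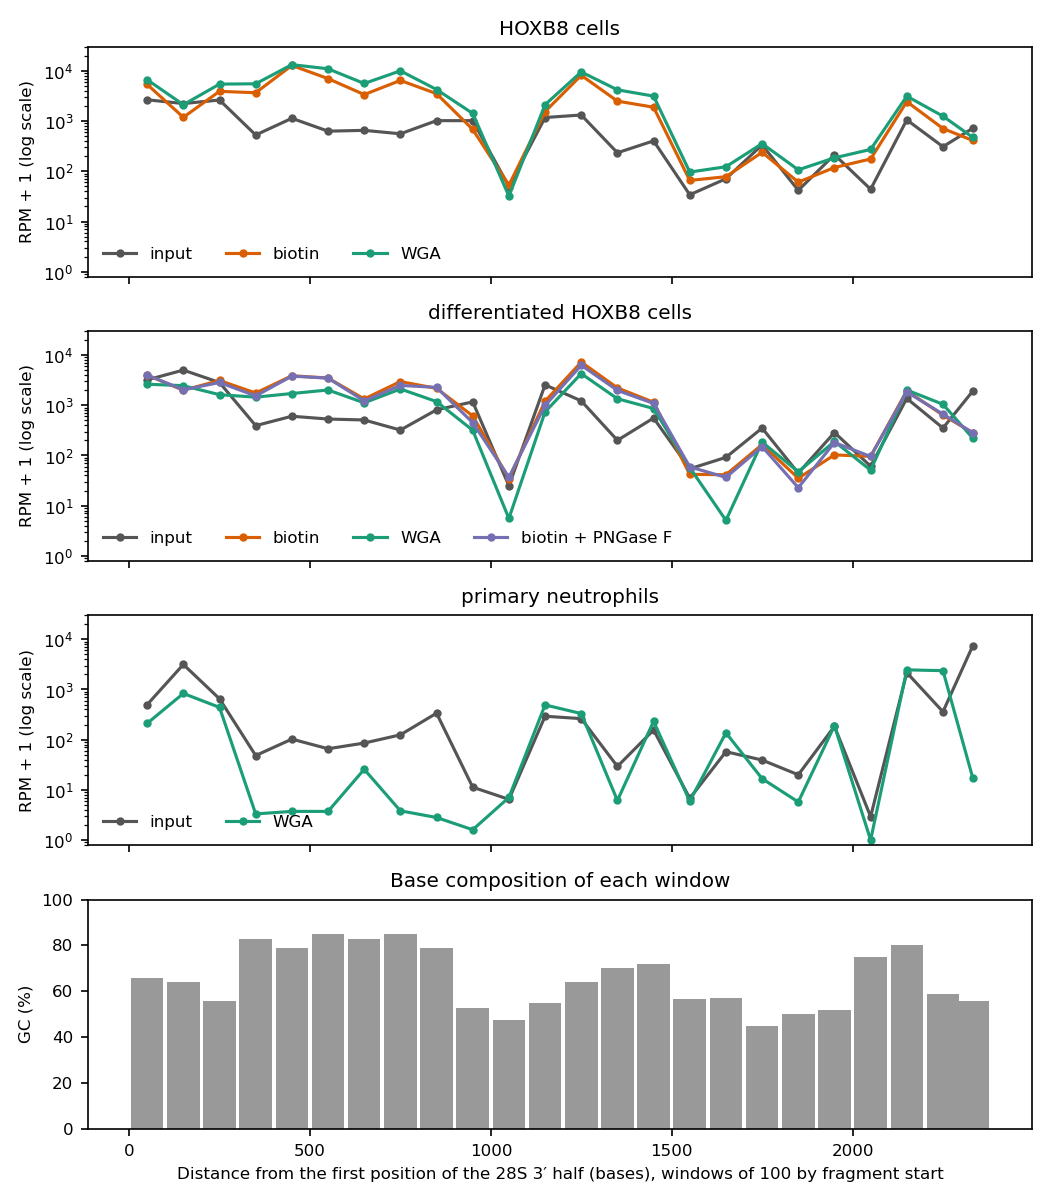
Summed RPM + 1 (log axis) in windows of 100 bases by fragment start, against distance from the first position past the threshold, 1 line per library, with the GC content of each window at the bottom. The undifferentiated HOXB8 biotin and WGA lines stand above input in all 8 windows of 75% GC or more, and the neutrophil WGA line falls below its input in all of them but the one near the 3′ end, where it has 2459 RPM against 2166.

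The 28-base fragment 11772 to 11799, with its pair of GGGG runs, was the highest or among the 3 highest members in the 5 HOXB8 captures. It had 49.9 RPM in the HOXB8 input, 3704 in biotin and 3319 in WGA. It had 97.4 in the differentiated input, 4492 in biotin, 2051 in WGA and 3868 with PNGase F, and 53.7 and 1.31 in the neutrophil input and WGA. All 5 HOXB8 captures lay above all 3 inputs, and neutrophil WGA lay below them. WGA was 66.5-fold above input in HOXB8 cells (57.6 to 77.2), 21.1-fold above it in differentiated cells and 40.98-fold below it in neutrophils. The start at 11772 was shared by 23 members, which summed to 5674 RPM in differentiated biotin, 14.0% of that library's member RPM.

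The 16-base fragment 11029 to 11044 had 237 RPM in the HOXB8 input, 2162 in biotin and 5018 in WGA. It had 201 in the differentiated input, 1236 in biotin, 897 in WGA and 1272 with PNGase F, and 22.2 and 1.31 in the neutrophil input and WGA. It was the highest member of HOXB8 WGA, and it too was lower after WGA capture only in neutrophils among the 3 kinds of cell. The fragment 11853 to 11869, with 7 G in a row, was nearly absent from inputs, at 1.60 RPM (6 reads) in HOXB8 and 2.63 in differentiated cells. It had 1682 RPM in HOXB8 WGA and 135 in differentiated WGA, 1050-fold (482 to 2861) and 51.3-fold (27.8 to 107) above input.

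GC content did not mark every captured member. The fragment 10687 to 10703, 52.9% GC, had 13.6 RPM in the HOXB8 input, 225 in biotin and 434 in WGA. It had 26.8 in the differentiated input, 937 in biotin, 1138 in WGA and 950 with PNGase F, and 15.4 and 5.24 in the neutrophil input and WGA. It was among the 3 highest members in each capture of differentiated cells. WGA was 31.9-fold above input in HOXB8 cells and 42.5-fold above it in differentiated cells, and 2.94-fold below it in neutrophils.

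A group of members from the same region went the other way. The fragment 10695 to 10714, which overlaps the last one, had 415 RPM in the HOXB8 input, 0.157 in biotin (1 read) and none in WGA. It had 768 in the differentiated input, none in biotin, 23.1 in WGA and 0.310 with PNGase F, and 500 and 419 in the neutrophil input and WGA. Against a floor of 3 reads per library, it was at least 763-fold lower in HOXB8 WGA than in input, but only 1.19-fold lower in neutrophil WGA. The 38-base fragment 10677 to 10714 had 227 RPM in the HOXB8 input, 1.72 in biotin and 0.181 in WGA (1 read), and 522 in the differentiated input, 0.124 in biotin and 0.117 in WGA (1 read each). In neutrophils it had 574 in the input and 106 in WGA.

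The fragment 10544 to 10566 was the highest member of the HOXB8 input. It had 694 RPM there, 0.157 in biotin and none in WGA. It had 964 in the differentiated input, 0.373 in biotin and none in WGA or with PNGase F, and 232 and 76.6 in the neutrophil input and WGA. It was at least 1277-fold lower in WGA than in input in HOXB8 cells, at least 2745-fold lower in differentiated cells and 3.03-fold lower in neutrophils. Its GC content was 78.3%, against 82.1% for the captured 11772 to 11799 and 52.9% for 10687 to 10703.

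**Figure D4:**
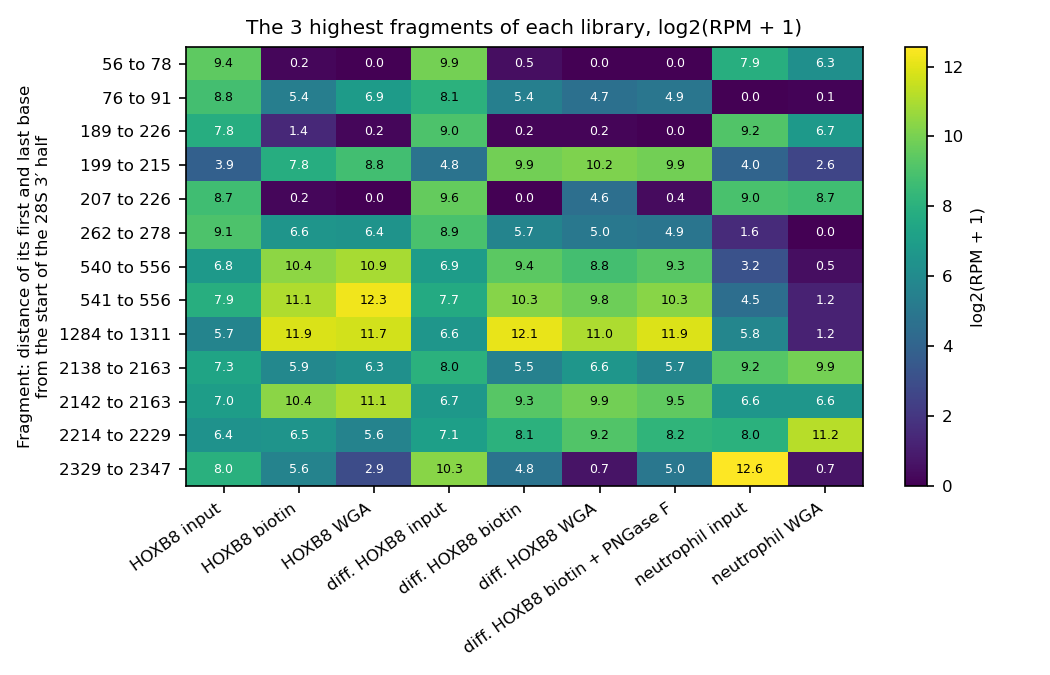
The 13 fragments that were among the 3 highest of any library (rows, by distance from the threshold) in the 9 libraries (columns), as log2(RPM + 1). Input-abundant and capture-abundant fragments lie side by side along the RNA, and the last row, the fragment at the 3′ end, is highest in the 3 inputs.

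Members at the 3′ end of the covered 28S sequence were higher in each input than in its captures, and highest in the neutrophil input. Of members within 28S, 16 ended at 12835, 1 ended at 12836, and none ended beyond that. Those ending at 12835 summed to 607 RPM in the HOXB8 input, 1678 in the differentiated input and 6866 in the neutrophil input, which was 3.18%, 6.84% and 42.6% of member RPM. They summed to 349 RPM in HOXB8 biotin and 431 in HOXB8 WGA, to 258, 182 and 248 in differentiated biotin, WGA and PNGase F, and to 1.01 in neutrophil WGA. The end was thus present in the HOXB8 captures, and neutrophil WGA had almost none of it. The 19-base fragment 12817 to 12835 made up most of this in neutrophils. It had 250 RPM in the HOXB8 input, 47.8 in biotin and 6.52 in WGA. It had 1267 in the differentiated input, 26.1 in biotin, 0.586 in WGA and 31.01 with PNGase F, and 6034 and 0.605 in the neutrophil input and WGA. The 3 inputs lay above all 6 other libraries. The input level was 5.07-fold higher in differentiated than in HOXB8 cells (4.72 to 5.44) and 4.76-fold higher in neutrophils than in differentiated cells (4.61 to 4.92). Whether more such fragments or less of other RNA lies behind a higher RPM cannot be told apart.

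Other members near the 3′ end were high in neutrophil WGA. The fragment 12702 to 12717 had 257 RPM in the neutrophil input and 2356 in neutrophil WGA, 9.15-fold higher (8.53 to 9.83). It had 84.4 in the HOXB8 input, 90.01 in biotin and 48.5 in WGA, and 136 in the differentiated input, 272 in biotin, 570 in WGA and 296 with PNGase F. WGA was thus above input in neutrophils and in differentiated cells, 4.18-fold in the latter, and 1.74-fold below it in HOXB8 cells. A pair of members that share the end at 12651 and differ by 4 bases at the start moved apart. The longer, 12626 to 12651, had 160 RPM in the HOXB8 input, 57.9 in biotin and 78.9 in WGA, and 607 and 970 in the neutrophil input and WGA. The shorter, 12630 to 12651, had 128 RPM in the HOXB8 input, 1328 in biotin and 2144 in WGA, and 96.8 and 96.7 in the neutrophil input and WGA. In differentiated cells the longer had 255 RPM in the input and 97.4 in WGA, and the shorter 101.1 and 933. The shorter was the more abundant of the pair in each HOXB8 capture, and the longer in the inputs and in neutrophil WGA.

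Past the end of 28S, 5 members ended in the spacer, 4 of which also started there. Their highest levels were 18.2, 33.0, 6.98, 20.1 and 15.5 RPM, each in a captured library of differentiated HOXB8 cells. In the 3 inputs none passed 1.575 RPM.

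Most members had similar levels in the biotin libraries with and without PNGase F, and some differed widely. Of 619 members tested, 95 were at least 2-fold higher (13.1% of all sequences) and 117 lower (15.3%) than in the untreated biotin library of the same cells. Among the leading captured members, 11772 to 11799 had 0.861 of its biotin level (0.847 to 0.875), 11029 to 11044 had 1.03 (0.999 to 1.06), and 10687 to 10703 had 1.01 (0.980 to 1.05). Members within 2-fold of each other made up 65.8% of these 619, against 67.3% of 327 between the HOXB8 and differentiated inputs and 57.5% of 1060 between HOXB8 biotin and WGA. By rank the PNGase F and biotin libraries were the least alike of these pairs. Spearman's rho between levels was 0.42 for them, 0.67 for the inputs and 0.57 for HOXB8 biotin and WGA.

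The biotin and PNGase F libraries also differed in the letters read at some positions. A member was compared letter by letter with the majority letter of overlapping members: 1997 members matched it throughout and 376 differed. The differing members held 0.681%, 0.650% and 0.915% of member reads in the HOXB8, differentiated and neutrophil inputs. They held 7.85% in HOXB8 biotin, 8.01% in HOXB8 WGA, 15.4% in differentiated biotin, 10.9% in differentiated WGA, 8.10% with PNGase F and 0.192% in neutrophil WGA. The tokens below give the majority base, its position on the 45S record and the base read. Of 4 substitutions that were the only difference in at least 10 members, the 2 with most reads are shown. Each is given by its most abundant pair, with the substituted base in capitals.

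10579 to 10612, majority: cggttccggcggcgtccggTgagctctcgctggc

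10579 to 10612, T10598G: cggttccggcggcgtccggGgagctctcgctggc

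11243 to 11259, majority: cgaggtgcgtggCgggg

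11243 to 11259, C11255G: cgaggtgcgtggGgggg

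T10598G was the only difference in 42 members. Shares here count only members with at most 1 difference that read this base or the majority base at the position. The share of T10598G was 0.508% in the HOXB8 input, 7.72% in biotin and 0.0429% in WGA. It was 4.27% in the differentiated input, 77.4% in biotin (76.9 to 77.9), 18.4% in WGA and 0.0386% with PNGase F (9 reads), and 41.3% in the neutrophil input (34.5 to 48.3) and 6.27% in neutrophil WGA. Among the reads so counted, the base was thus the majority in 1 library alone, and neither the captures nor the kinds of cell were alike. For the fragment 10579 to 10612, the T10598G form had 712 RPM in differentiated biotin and 0.465 with PNGase F, while the majority form had 140 and 810.

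C11255G, the only difference in 11 members, lengthens a run of G. Its share, counted the same way, was 0.780% in the HOXB8 input, 20.46% in biotin and 27.9% in WGA. It was 0.666% in the differentiated input, 16.9% in biotin, 35.5% in WGA and 15.8% with PNGase F. In neutrophils it was 16.8% of 125 reads in the input and 42.1% of 19 reads in WGA. The 5 HOXB8 captures lay above both HOXB8 inputs. For C10971G the differentiated input (4.22%, 2.75 to 6.16) was nearly level with biotin (4.22%) and WGA (4.32%), with 5.08% in the PNGase F library. In HOXB8 cells its share was 1.75% in the input, 4.79% in biotin and 6.56% in WGA. C11090G had 1.63%, 31.2% and 26.5% in the HOXB8 input, biotin and WGA, and 0 of 151 reads (up to 2.41%), 21.1% and 17.6% in the differentiated ones. What these letters are in the RNA itself was not tested.

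**Figure D5:**
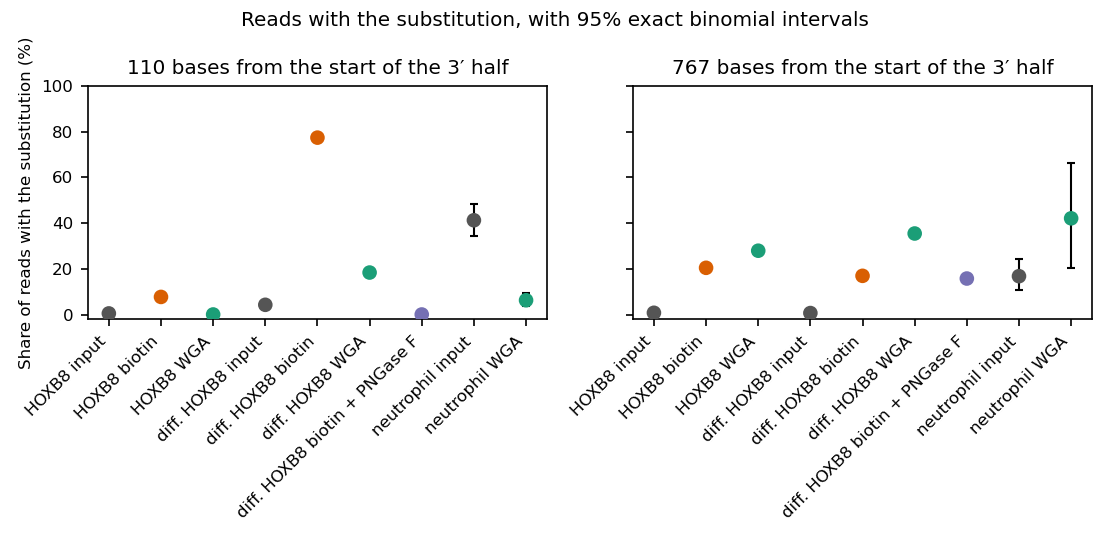
Share of reads (%) with T10598G (left) and C11255G (right) in each library, with 95% exact binomial intervals; grey is input, orange biotin, green WGA and purple biotin with PNGase F. The left share reaches 77.4% in differentiated biotin and 0.0386% after PNGase F, while the right share is above the HOXB8 inputs in each HOXB8 capture.

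A fit over the 6 WGA and input libraries, with the kind of cell as a block, tested the mean difference between WGA and input. Of 2373 members 224 passed its filter of 10 RPM in at least 3 libraries. By limma with Benjamini-Hochberg adjustment over all 2087 sequences, 0 members were higher in WGA (1.01% of all sequences) and 24 were lower (22.1%). At an unadjusted p under 0.05, 0 of the 224 members were higher and 39 lower, where 696 of all 2087 sequences passed in either direction. The 24 ended at few places: 10 at 10703, 10 at 10714, 2 at 10566 and 1 each at 12834 and 12835. All 24 were lower in 3 of 3 kinds of cell, but by unequal amounts, as for 10544 to 10566 above. Of the 24, 12 passed the filter through the inputs alone and so could only be lower; 12817 to 12835 is one of them, and no p is given for it. edgeR on recovered reads called 0 members and 0 of all 2087 sequences (smallest adjusted p of members 0.0611). At an unadjusted p under 0.05 it had 18 of the 224 members and 388 of all 2087 sequences. Without the neutrophil libraries 29 members were called higher and 53 lower, where 198 and 828 of all 2087 sequences were. Without HOXB8 or differentiated cells 4 and 7 members were called lower, where 215 and 254 of all sequences were.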

How the data were processed

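The deposited small RNA values are RPM made by the authors, the reads of each unique sequence scaled to library size. The build is mm10 per the submitters' processing notes, and the aligner, trimming and filter are not given in the sources used here. All values came out as whole reads within 0.01, so reads were recovered. The automatic check of that step did not take the neutrophil WGA column, whose step is close to a power of 10. Libraries held 3110323 to 9922659 reads. Groups came from the labels, and 4 poly(A) RNA-seq libraries were not used here. Members and lists were chosen with earlier results of these data known. Named members are the 3 highest of each library, the 3 most raised and lowered per capture among those at 100 RPM, limma calls, the 5 leading starts and ends, members past 28S, and those beside the threshold. The limits of 28S on the record are general knowledge, and sequences come from the table. Single libraries were compared by exact conditional intervals, 3 kinds of cell by sign flips, and many sequences by limma 3.58.1 on log2(RPM + 1), with edgeR 4.0.16 as an alternative. The fits were checked on simulated data. Further alternatives were other pseudocounts, filters, denominators and member sets.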

Additional observations from a re-analysis of the deposited data

Results flagged for a closer look

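WGA capture went with opposite changes in different kinds of cell for the summed fragments and for 4 of the 13 members examined, those among the 3 highest of any library. Each was at least 2-fold higher in WGA than in input in one kind of cell and at least 2-fold lower in another. With 1 library per group the difference was not tested. The summed level had log2 ratios of 2.25 in HOXB8 cells, 0.18 in differentiated cells and -1.05 in neutrophils, a span of 3.30. On log2(RPM + 1), the fragment 11772 to 11799 had 6.03, 4.38 and -4.57 in the same order, a span of 10.59. The fragment 11029 to 11044 had 4.40, 2.15 and -3.33, a span of 7.73, and 11028 to 11044, which is 1 base longer, had 4.13, 1.85 and -2.69, a span of 6.81. The fragment 10687 to 10703 had 4.90, 5.36 and -1.40, a span of 6.75. In all 5 the neutrophil value was the negative one.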

How the results depend on the processing

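The summed log2 ratios (capture over input unless named) were recomputed in 7 ways. Without the 10 members of highest RPM they moved to 2.02 for HOXB8 WGA, -0.85 for neutrophil WGA, 1.61 for HOXB8 biotin, 0.48 for differentiated biotin, 0.32 for differentiated over HOXB8 input and -1.23 for neutrophil over differentiated input, and changed sign to -0.088 for differentiated WGA. Over members of 20 or more bases they moved to 2.14 for HOXB8 WGA, 0.10 for differentiated WGA, -0.65 for neutrophil WGA, 1.91 for HOXB8 biotin, 0.80 for differentiated biotin, 0.63 for differentiated over HOXB8 input and -0.94 for neutrophil over differentiated input. As a share of the table they moved to 1.04 for HOXB8 WGA, -1.08 for neutrophil WGA, 0.58 for HOXB8 biotin, 0.31 for differentiated biotin and -0.94 for neutrophil over differentiated input, and changed sign to -0.29 for differentiated WGA, -0.48 for differentiated over HOXB8 input and -0.11 for the mean over the 3 kinds of cell. As a share of 45S reads they moved to 0.48 for HOXB8 WGA, -0.23 for neutrophil WGA, 0.20 for HOXB8 biotin, -0.10 for PNGase F over biotin and -1.66 for neutrophil over differentiated input, and changed sign to -0.72 for differentiated WGA, -0.27 for differentiated biotin, -0.75 for differentiated over HOXB8 input and -0.16 for the mean over the 3 kinds of cell. With the exact matches annotated elsewhere, an alternative chosen after seeing the data, they moved to 1.72 for HOXB8 WGA, -0.93 for neutrophil WGA, 1.28 for HOXB8 biotin, 0.24 for differentiated biotin, -0.062 for PNGase F over biotin, 0.43 for differentiated over HOXB8 input and -0.53 for neutrophil over differentiated input, and changed sign to -0.18 for differentiated WGA. Over members matching the majority sequence, also chosen after seeing the data, they moved to 2.14 for HOXB8 WGA, 0.018 for differentiated WGA, 1.69 for HOXB8 biotin and 0.49 for differentiated biotin, and changed sign to 0.023 for PNGase F over biotin. Leaving out members that end past 28S moved none of the 9 sums beyond its interval. At a mean of 50 RPM or more, members past 2-fold numbered 156 higher and 22 lower for HOXB8 WGA, 40 higher and 42 lower for differentiated WGA, 6 higher and 19 lower for neutrophil WGA, 108 higher and 22 lower for HOXB8 biotin, 58 higher and 40 lower for differentiated biotin, 11 higher and 14 lower for PNGase F over biotin, 29 higher and 8 lower for differentiated over HOXB8 input, 9 higher and 37 lower for neutrophil over differentiated input. With no filter on low values, members past 2-fold numbered 1555 higher and 284 lower for HOXB8 WGA, 763 higher and 635 lower for differentiated WGA, 32 higher and 222 lower for neutrophil WGA, 1619 higher and 257 lower for HOXB8 biotin, 1244 higher and 431 lower for differentiated biotin, 490 higher and 548 lower for PNGase F over biotin, 166 higher and 185 lower for differentiated over HOXB8 input, 52 higher and 743 lower for neutrophil over differentiated input. On shares of 45S reads, members past 2-fold numbered 164 lower for HOXB8 WGA, 22 higher for neutrophil WGA, 168 lower for HOXB8 biotin, 7 higher and 138 lower for differentiated over HOXB8 input, 14 higher for neutrophil over differentiated input. A pseudocount of 5 RPM left all 16 counts within 1.5 times. The share over all sequences was not computed under these alternatives, so their counts have no background to be read against. The limma calls were 0 higher and 24 lower. They became 2 higher with no filter, 0 lower with edgeR and 15 lower without the block for kind of cell. Leaving out 1 kind of cell at a time, chosen after seeing the data, gave 0 to 29 higher and 4 to 53 lower. Among all sequences the calls were 9 higher with no filter, 0 with edgeR and 410 lower without the block. Leaving out kinds of cell gave 3 to 198 higher and 215 to 828 lower among them. Each of the 10 named calls missed the threshold in edgeR, and the cause was not tested. Each kept its direction under every alternative run. All but 10544 to 10566 and 10677 to 10714 passed the filter through the inputs alone. Their direction was fixed in advance, so its keeping is no check. No paired analysis was possible because the labels of the small RNA libraries carry no replicate numbers to pair by. The sign flips and the block above pair WGA with input by kind of cell instead. The floor of 3 reads, set against a library at 0 reads in a fold, stands at 0.302 to 0.965 RPM.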
